A study of Canis lupus familiaris with 6 samples.

Results

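Molecular chaperones are proteins that help other proteins fold, hold unfolded chains and pass damaged ones on for degradation. HSP70 proteins bind short exposed stretches of a client in cycles driven by ATP, HSP40 (DNAJ) proteins bring clients to them and start the ATP step, HSP90 proteins act late in the folding of kinases and receptors, small heat shock proteins hold unfolded chains without ATP, and the TRiC/CCT ring folds actin and tubulin. In the endoplasmic reticulum (ER), HSPA5 (BiP), HSP90B1, the lectin chaperones CALR and CANX and the disulfide isomerases of the PDI family fold secreted and membrane proteins. Several are raised in tumor cells.

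The genes were taken by symbol, as every probe that is not a control and is named for an HSP70, HSP90, HSP40, small HSP, HSP60, TRiC/CCT, PDI or BAG family member, or for P4HB, CALR, CANX, HYOU1, STIP1 or ST13. This gave 124 probes for 71 genes, out of 43603 probes on the array, and no measured value entered the choice. The array is an Agilent canine oligo microarray, on which RNA of co-cultured and of monocultured cells of the same line, labelled with Cy5 and Cy3, are hybridized together. Tumor cells came from dogs: line CMT-U27 from a mammary simple carcinoma, line CMT-U309 from a spindle cell tumor and line P114 from an anaplastic cancer. Each was grown in culture medium with fetal bovine serum, either alone or with medium shared through an insert with myeloid-derived suppressor cells (MDSCs). The MDSCs had been sorted by surface antigens, and blood donors were dogs in good health. Co-culture lasted 48 h by the methods and at least 72 h by the sample descriptions.

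A dye-swap pair of 2 arrays measured each line, giving 6 arrays and 12 channels. The pair holds 1 co-culture and 1 monoculture RNA and counts as 1 replicate, so n is 3 cell lines, and a single line has no test of its own. Both arrays of a line also share a slide, so line and slide cannot be told apart. Between 53.0% and 81.0% of spots per channel were well above background, a flag set by the scanner software.

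Arrays of a dye-swap pair often differed. Turned to co-culture over monoculture, the log2 ratios of both arrays correlated over the 40873 probes tested at -0.39 for the P114 pair, 0.26 for CMT-U27 and -0.09 for CMT-U309, so the P114 arrays went against each other. The direction of the P114 ratios is therefore uncertain, and each one given here rests on the dyes as labelled. Whether a label is wrong was not tested. Over the 107 chaperone probes that were well above background in all 12 channels the values were 0.05, 0.56 and 0.24. Over all 20740 such probes they were -0.14, 0.44 and 0.24. Results are therefore given with P114 and without it. Probes are not independent replicates, and these correlations are a description.

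**Figure D1:**
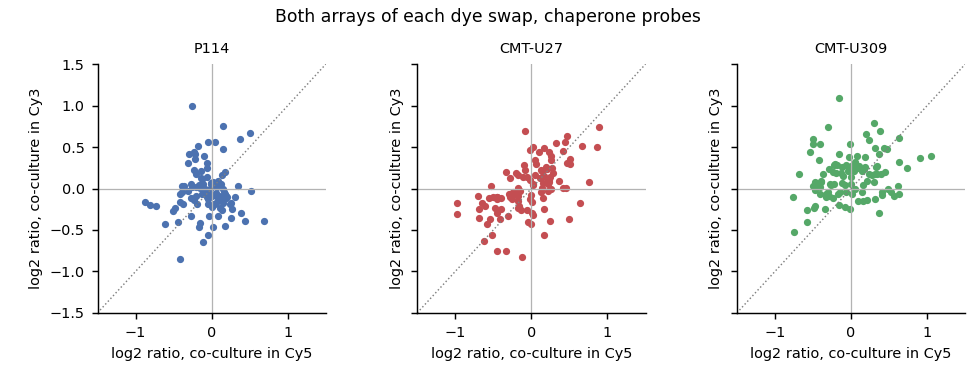
Log2 ratio of co-culture over monoculture of the 107 chaperone probes well above background in all 12 channels, with co-culture RNA in Cy5 (horizontal) and in Cy3 (vertical), 1 panel per cell line and 1 point per probe; the dotted line marks equal values. Points follow the dotted line most closely in CMT-U27 (correlation 0.56) and form a round cloud in P114 (0.05).

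Several markers set the carcinoma line apart, but not every one. EPCAM, an epithelial adhesion protein, had a log2 level of 15.42 in CMT-U27, 9.18 in P114 and 6.68 in CMT-U309, and VIM, the mesenchymal filament protein, had 10.19, 16.86 and 16.23. The epithelial keratin KRT14 was lowest in CMT-U27 (11.05, against 11.86 in P114 and 12.58 in CMT-U309), and PDGFRB had 6.77 in CMT-U27 and 6.70 in CMT-U309. Of 15 myeloid genes that would mark the co-cultured cells, 12 had a probe, 2 (CD68 and S100A8) were well above background in all 12 channels, and 3 (SPI1, ITGAM and LYZ) in none. The log2 of their summed signal was between 10.53 and 13.74 in the co-culture channels and between 10.59 and 12.97 in the monoculture channels. That of 5 lymphoid genes was at most 7.74 in co-culture and 8.14 in monoculture channels. None of these genes was called, and their part in the results below was not tested.

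Chaperone probes were bright. Of the 124, 107 (86.3%) were well above background in all 12 channels, against 47.6% of all probes, and 3 (2.42%) in none, against 14.3%. The latter were DNAJC6, the second probe of CCT6B, and CCT8L2, and for these no fold is given. CCT8L2 did not pass the intensity filter, so 123 probes entered the tests. Of the genes, 35 had 1 probe and 36 had several, up to 5.

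Probe sequences are shown for 4 genes. HSPB8 was chosen because its probes lie on both strands and in separate places, and the others for the reasons given with them. All are 60 bases long, are written 5′ to 3′ as the scanner files give them, and are placed on canFam2. For HSPB8, probe 2 (chr26:18362041-18362100) and probe 5 (chr26:18374163-18374222) lie far apart on the plus strand, and their longest shared run is 7 bases. Probes 1 and 4 have the same coordinates (chr26:18374518-18374577) on opposite strands and are reverse complements of each other over all 60 bases. Of these, 30 bases are shown in capitals, the first of probe 1 and the last of probe 4, which pair with each other.
HSPB8 probe 2: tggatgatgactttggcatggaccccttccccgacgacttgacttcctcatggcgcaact
HSPB8 probe 5: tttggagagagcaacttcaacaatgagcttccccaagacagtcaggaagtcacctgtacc
HSPB8 probe 1, first part: ATTTCACACTGTATCTTCCTTTTGCAGCAA
HSPB8 probe 4, last part: TTGCTGCAAAAGGAAGATACAGTGTGAAAT

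The HSPA5 probes, on chromosome 9 (61196812 to 61196871 for probe 1, 61193258 to 61193765 for probe 2), gave different orders of the cell lines. CALR has a single probe, at chr20:52252387-52252446 on the minus strand, and it carries the smallest p of all chaperone probes in the comparison of co-culture with monoculture. The second probe of PDIA3 (chromosome 30, 13495877 to 13500348) spans more of the genome than its own length, and it is shown because it differed from the first. No part of these is in capitals.
HSPA5 probe 1: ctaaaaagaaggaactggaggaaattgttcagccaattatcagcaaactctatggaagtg
HSPA5 probe 2: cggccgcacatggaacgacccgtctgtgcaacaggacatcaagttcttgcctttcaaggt
CALR probe 1: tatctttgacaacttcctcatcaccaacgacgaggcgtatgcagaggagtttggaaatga
PDIA3 probe 2: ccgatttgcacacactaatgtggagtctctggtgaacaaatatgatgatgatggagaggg

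Most chaperone probes differed in level between the cell lines. A level here is the log2 processed signal, with channels brought to one median, and it is compared only within a probe. In limma's F-test between lines, 99 of 123 chaperone probes (80.5%) had a Benjamini-Hochberg adjusted p under 0.05, against 55.1% of all probes tested. Among probes well above background in all 12 channels the shares were 85.0% and 71.5%. The test has 6 RNA samples, and its error is the spread of line by condition, not of repeated cultures. Co-culture and monoculture RNA of a line share arrays, so this error also leaves out the spread between arrays. With the 6 array means in place of the 6 RNA samples 101 probes (82.1%) passed, against 55.3%. Both array means of a line hold the same RNAs, so neither test measures the spread between cultures of a line.

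CMT-U27, the simple carcinoma line, had the highest level at 69 of 123 chaperone probes (56.1%), against 34.9% of all probes. P114 was highest at 30 (24.4%, against 37.6%) and CMT-U309 at 24 (19.5%, against 27.5%). After quantile normalization CMT-U27 was highest at 57 (46.3%, against 36.3% of all probes), and without scaling at 58 (47.2%, against 35.2%). Without scaling CMT-U309 was highest at 63 (51.2%, against 55.7%) and P114 at 2 (1.63%, against 9.13%). The unscaled median over all probes was 6.33 in P114, 7.08 in CMT-U309 and 6.81 in CMT-U27. In 39 probes (31.7%) all 4 channels of CMT-U27 were above all channels of the other lines, against 16.7% of all probes. P114 was lowest and apart in 18 (14.6%, against 5.06%) and highest and apart in 14 (against 7.5%), and CMT-U309 highest and apart in 5 (against 7.2%) and lowest and apart in 12 (against 10.4%). CMT-U27 was also lowest and apart in 17, for which the share of all probes was not counted, so this count does not set chaperones apart from other probes. In all, the lowest line stood apart at 47 probes (38.2%, against 26.2%), the highest at 58 (47.2%, against 31.4%) and all 3 lines at 17 (13.8%, against 12.4%). The range between the highest and the lowest line was over 2-fold at 57 probes (46.3%, against 43.5%) and over 4-fold at 13 (10.6%, against 13.4%).

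By role, the line with the highest level varied. Among HSP40 probes CMT-U27 was highest at 30 of 46, and among TRiC/CCT probes at 7 of 8, against 34.9% of all probes. These counts depend on the scaling: the brightest probes of DNAJA1, DNAJA3 and DNAJC8 were highest in CMT-U309 after quantile normalization or without scaling. The 8 TRiC/CCT probes cover only 4 genes. Ring subunits annotated under another symbol were divided: CCT2 and CCT4 were highest in P114, CCT6A in CMT-U309 and CCT3 in CMT-U27. Of these only CCT3 passed limma's F-test (adjusted p = 0.0124). All 3 probes of cytosolic HSP90 were highest in CMT-U27 and lowest in CMT-U309. Of 10 small heat shock protein probes CMT-U27 was highest at none and lowest at 8, but 5 of these are probes of HSPB8, and at the others (HSPB3, HSPB6 probe 1 and HSPB9) its channels overlapped with those of another line. ER chaperones were divided, with 13 of 25 probes highest in CMT-U27, 8 in P114 and 4 in CMT-U309.

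HSPB8 is a small heat shock protein that works with BAG3 in sending misfolded proteins to autophagy. At its brightest probe the 4 channels reached from 7.98 to 8.46 in CMT-U27, and from 10.38 to 10.58 in CMT-U309. P114 had a mean of 10.31 and a highest channel of 10.60. The level in CMT-U27 was lower by 2.35 on the log2 scale than in CMT-U309 (adjusted p = 3.71e-06 in limma's F-test), and P114 and CMT-U309 overlapped. All 5 HSPB8 probes had CMT-U27 lowest with no overlap, by a range of 1.15 at probe 2, 2.38 at probe 3, 2.06 at probe 4 and 2.45 at probe 5. Probe 4, on the opposite strand of probe 1, thus showed the same order, with levels of 8.48 in P114, 8.76 in CMT-U309 and 6.70 in CMT-U27. Which RNA strand gives its signal was not tested. HSPB1 (HSP27), another small heat shock protein, was instead lowest in P114, with channels from 13.95 to 14.36 there, from 14.75 to 15.60 in CMT-U27 and from 14.92 to 15.65 in CMT-U309 (adjusted p = 0.000969).

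**Figure D2:**
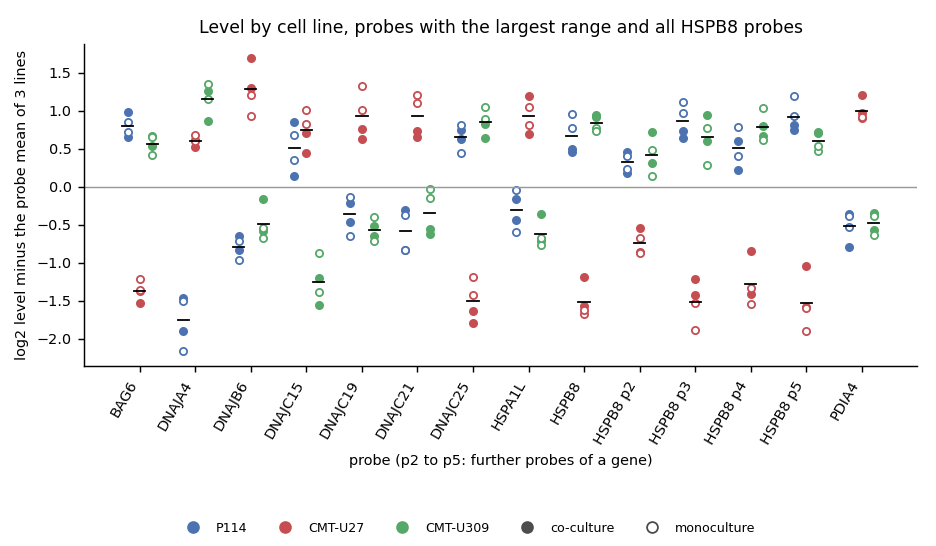
Log2 level of each channel minus the probe's mean of the 3 cell lines (vertical), for the 10 genes with the largest range between lines among brightest probes well above background in all 12 channels, and for the further HSPB8 probes (horizontal); filled points are co-culture and open points monoculture channels, colours mark the line, and bars are line means. HSPB8, BAG6 and DNAJC25 lie low in CMT-U27, DNAJA4 low in P114 and DNAJC15 low in CMT-U309.

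Among HSP40 genes, DNAJA4, a partner of cytosolic HSP70, had its channels between 6.57 and 7.27 in P114, 9.25 and 9.42 in CMT-U27 and 9.60 and 10.08 in CMT-U309. It was the widest range of the brightest probes named here, 2.91 on the log2 scale (adjusted p = 4.54e-07), and its dim second probe, not above background in every channel, gave 3.23 in the same order. DNAJC25 was low in CMT-U27, from 9.24 to 9.85, against 11.47 to 11.84 in P114 and 11.66 to 12.08 in CMT-U309. DNAJC15, which sits in the inner membrane of mitochondria, was low in CMT-U309, from 9.59 to 10.27, against a mean of 11.65 in P114 and of 11.89 in CMT-U27, and did not overlap with either.

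DNAJB6, which keeps aggregation-prone proteins in solution, was high in CMT-U27 (10.51 to 11.27), against 8.63 to 8.93 in P114 and 8.90 to 9.42 in CMT-U309. DNAJC19, part of the mitochondrial import motor, and DNAJC21, which works in ribosome assembly, were also high in CMT-U27. Their levels were 14.81 against 13.51 in P114 and 13.31 in CMT-U309 for DNAJC19, and 11.96 against 10.45 and 10.69 for DNAJC21. The adjusted p of these 5 HSP40 genes other than DNAJA4 was at most 5.26e-05.

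BAG6, which guards newly made membrane proteins before insertion, was low in CMT-U27. Its channels ran from 12.01 to 12.33 there, from 14.20 to 14.52 in P114 and from 13.96 to 14.21 in CMT-U309 (adjusted p = 1.04e-06), and its dim second probe had the same line lowest. Other co-chaperones were divided. BAG3 was lowest in CMT-U309 at its brightest probe, with levels of 12.73 in P114, 11.60 in CMT-U309 and 12.56 in CMT-U27. BAG1, a nucleotide exchange factor of HSP70, was instead lowest in CMT-U27 (11.23, against 12.33 in P114 and 12.47 in CMT-U309). ST13, the HSP70 partner also called Hip, was highest in CMT-U27 at all 3 probes.

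For cytosolic HSP90, HSP90AA1 had a level of 13.45 in CMT-U309, against 14.66 in P114 and 14.74 in CMT-U27. Its second probe had 11.71 in CMT-U309, against 12.85 and 13.05. CMT-U309 did not overlap with either line at both probes (adjusted p = 5.85e-05 and 0.000187). HSP90AB1, the constitutive form, had 15.66 in CMT-U309, 16.10 in P114 and 16.67 in CMT-U27, but its lowest line turned from CMT-U309 to P114 after quantile normalization or without scaling. In the HSP70 family, HSPA1L was highest in CMT-U27 (7.66, against 6.42 in P114 and 6.10 in CMT-U309), and the 3 probes of HSPA2, which is best known from testis, were highest in P114 with no overlap, of which probes 2 and 3 were highest in CMT-U309 without scaling.

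In the ER, probes of 1 gene did not always give the same order. PDIA4, a disulfide isomerase, was high in CMT-U27, from 14.99 to 15.30, against 13.30 to 13.74 in P114 and 13.47 to 13.75 in CMT-U309 (adjusted p = 1.38e-05). HSPA5 was lowest in CMT-U27 at probe 1, with levels of 13.54 in P114, 13.30 in CMT-U309 and 12.90 in CMT-U27, and highest in CMT-U27 at probe 2, with 12.73 there, 11.51 in P114 and 11.56 in CMT-U309. Both passed the F-test (adjusted p = 0.0152 and 7.76e-05), though the channels of CMT-U27 and CMT-U309 overlapped at probe 1. PDIA6 was low in CMT-U27 at all 3 probes, by a range of 0.81 at the brightest and of 2.07 and 2.10 at the other two, which share a run of 36 bases. HSP90B1 was highest in P114 at both probes, and in CMT-U309 without scaling. Of the 31 genes with several probes well above background in all 12 channels, 24 had the same highest line at all of them.

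No chaperone gene passed the thresholds of the methods in co-culture over monoculture. Those ask for a mean ratio of the 3 lines past 2-fold together with p under 0.05 before adjustment. Of 123 probes, 0 were called higher, against 1.03% of all probes tested, and 0 were called lower, against 0.191%. After Benjamini-Hochberg adjustment limma left 0 chaperone probes and 0 of all. At an unadjusted p under 0.05, 7 chaperone probes were higher (5.69%, against 5.81% of all) and 3 were lower (2.44%, against 4.12%). The methods' t-test called 0 chaperone probes, and 83 higher and 35 lower of all. A fit of the 6 arrays with a dye term called 0, and 464 and 78 of all. It counts each array as a replicate, though both arrays of a line carry the same RNA. Normexp with loess called 0, and 3 and 0 of all.

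The ratios were small. Over the 107 bright probes they ran from -0.63 to 0.59 on the log2 scale in P114, from -0.64 to 0.82 in CMT-U27 and from -0.64 to 0.72 in CMT-U309, so none was over 2-fold in any line. Of all 20740 such probes, 0.053% were over 2-fold higher and 0.391% over 2-fold lower in P114. The shares were 1.22% and 0.135% in CMT-U27, and 0.718% and 0.0289% in CMT-U309. The median of the mean ratio was -0.00 over the 123 probes and 0.01 over all 40873. The mean was positive at 58 probes (47.2%, against 51.4% of all), and after normexp with loess at 42 (34.1%, against 49.1%). On both arrays of P114 14 chaperone probes were higher (11.4%, against 19.9% of all) and 36 lower (29.3%, against 18.7%). For CMT-U27 these were 41 (33.3%, against 33.1%) and 48 (39.0%, against 29.6%), and for CMT-U309 40 (32.5%, against 28.9%) and 23 (18.7%, against 22.9%). The same sign in all 3 lines was found at 23 probes upwards (18.7%, against 16.5%) and 22 downwards (17.9%, against 14.8%). On all 6 arrays 3 probes were higher (2.44%, against 2.55%), probe 1 of HSPH1, probe 3 of DNAJC10 and probe 1 of PDIA3, and 1 was lower (0.813%, against 1.75%), probe 1 of CCT8.

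**Figure D3:**
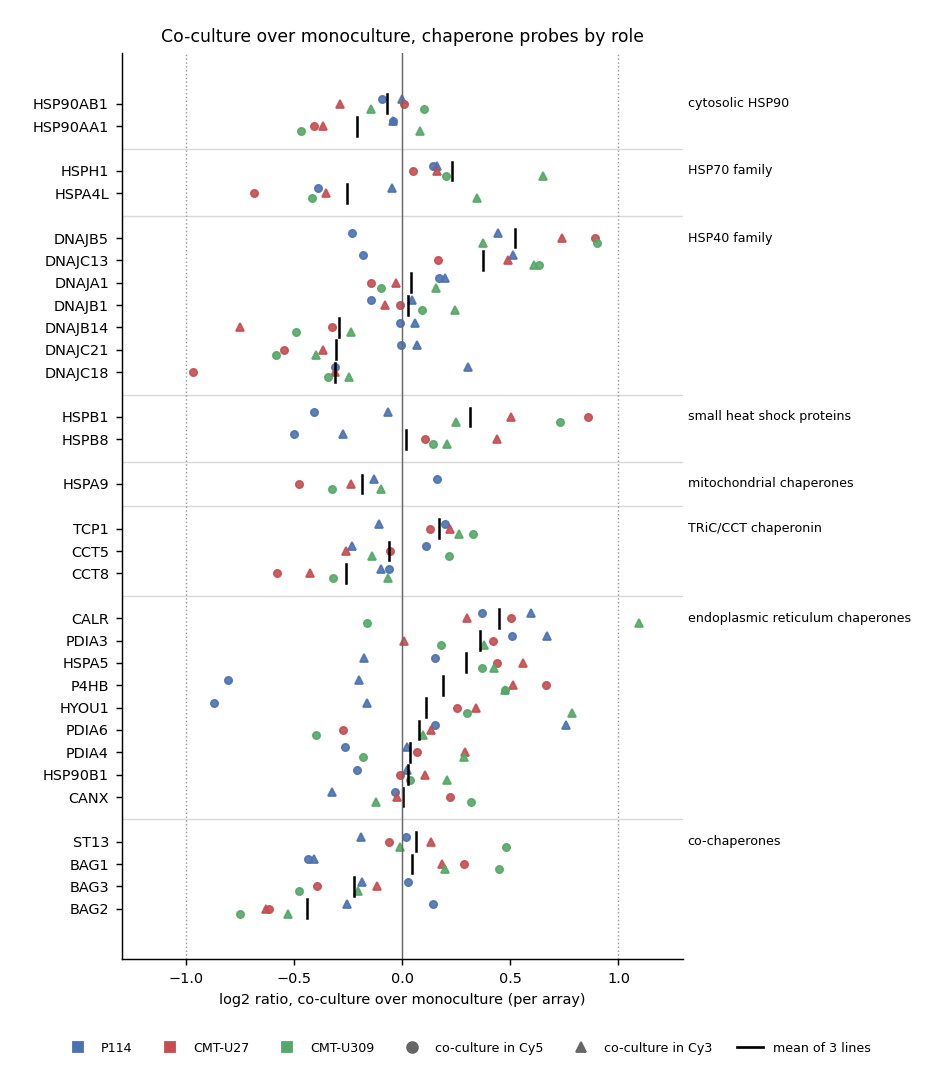
Log2 ratio of co-culture over monoculture on each of the 6 arrays (horizontal) for the brightest probe of chaperone genes named by rule, grouped by role (rows); colours mark the cell line, circles co-culture RNA in Cy5 and triangles in Cy3, the black bar the mean of 3 lines, and dotted lines a 2-fold change. CALR in CMT-U309 lies at -0.16 and 1.09 on its 2 arrays, and P4HB and HYOU1 lie below 0 in P114 and above 0 in the other lines.

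Of the 7 higher probes with an unadjusted p under 0.05, 5 were ER chaperones (CALR, PDIA3 probe 1, DNAJC10 probe 2, CANX probe 2 and HSPA5 probe 1) and the other two HSP40 genes (DNAJB5 and DNAJC13). The 3 lower were BAG2, DNAJC21 and the dim HSPE1. The ER group is a fixed list, and HSP40 genes not on it stayed in the HSP40 group whatever their location. Of the 25 ER probes 19 (76.0%) had a positive mean, against 51.4% of all probes, with a median of 0.05. With normexp and loess 13 were positive (52.0%, against 49.1%), and without CMT-U27 14 (56.0%, against 52.5%), so the count was then near that of all probes. CALR, the calcium-binding lectin chaperone, had log2 ratios of 0.37 and 0.59 on the P114 arrays, 0.50 and 0.30 on those of CMT-U27, and -0.16 and 1.09 on those of CMT-U309. The line means of 0.48, 0.40 and 0.46 lay close together, but the arrays of CMT-U309 did not agree. The mean was 0.45 ± 0.11 (limma's moderated SE, n = 3 lines, adjusted p = 0.498). That SE draws on the spread of all probes, and the SD of the CALR line means alone was 0.04.

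PDIA3 (ERp57), the isomerase that works with CALR and CANX, had 0.50 and 0.67 in P114, 0.42 and 0.01 in CMT-U27 and 0.18 and 0.38 in CMT-U309 at its first probe. Its mean was 0.36 ± 0.12 (limma's moderated SE, n = 3 lines, adjusted p = 0.498), and the ratio was positive on 6 of 6 arrays. The second probe had -0.05 and -0.57 in P114, 0.36 and 0.09 in CMT-U27, and 0.08 and 0.27 in CMT-U309, with a mean of 0.03, so the gene as a whole did not show this.

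HSPA5, the HSP70 of the ER, had 0.15 and -0.18 in P114, 0.44 and 0.56 in CMT-U27 and 0.37 and 0.42 in CMT-U309 at probe 1. The mean was 0.29 ± 0.13 (limma's moderated SE, n = 3 lines, adjusted p = 0.498), against 0.05 at probe 2. CANX, the membrane-bound relative of CALR, had a mean of 0.00 at probe 1 and of 0.33 at probe 2. DNAJC10, an ER HSP40 that also reduces disulfides, had means of -0.00, 0.32 and 0.14 at its 3 probes. The remaining representatives were near 0, with 0.03 for HSP90B1, 0.04 for PDIA4 and 0.08 for PDIA6.

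P4HB (PDI), HSPB1 and BAG1 divided the lines. P4HB, the first-described disulfide isomerase, had -0.81 and -0.20 in P114, 0.66 and 0.51 in CMT-U27 and 0.48 and 0.48 in CMT-U309 at its brightest probe. HSPB1 had -0.41 and -0.07 in P114, 0.86 and 0.50 in CMT-U27 and 0.73 and 0.25 in CMT-U309. At both genes every array of P114 was negative and every array of the other lines positive. HYOU1, an ER HSP70 relative, did the same, with line means of -0.52, 0.30 and 0.54, as did BAG1 with -0.42, 0.23 and 0.32 and the first HSPB8 probe with -0.39, 0.27 and 0.17. With 1 RNA pair per line these differences between lines were not tested. The share of all probes with such opposite signs was not counted, so they do not set these genes apart. Over all 20740 bright probes the line means of P114 correlated at -0.23 with those of CMT-U27 and at -0.22 with those of CMT-U309. Probes 2 and 3 of P4HB had line means of 0.26, 0.26 and 0.06, and of -0.15, 0.34 and 0.01.

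Outside the ER group, the HSP40 gene DNAJB5 had the highest mean ratio of the bright probes. Its arrays gave -0.23 and 0.44 in P114, 0.89 and 0.74 in CMT-U27 and 0.90 and 0.37 in CMT-U309. The mean was 0.52 ± 0.18 (limma's moderated SE, n = 3 lines, adjusted p = 0.498), and normexp with loess gave 0.30. DNAJC13, known from endosomal transport, had a mean of 0.37 and 0.09 with normexp. Of the 46 HSP40 probes 15 had a positive mean (32.6%, against 51.4% of all probes), and 13 with normexp (28.3%, against 49.1%). Without CMT-U27 it was 23 (50.0%, against 52.5%), near the share of all probes. With the deposited log10 ratios it was 14 (30.4%, against 45.7%). Without P114 it was 19 (41.3%, against 51.1%), and without CMT-U309 12 (26.1%, against 51.4%). DNAJC21 had 0.03 in P114, -0.49 in CMT-U309 and -0.46 in CMT-U27 at probe 1, and a mean of 0.03 at probe 2. DNAJC18 and DNAJB14 had means of -0.31 and -0.29. Probes of a gene also took opposite signs at DNAJA3 (-0.13 to 0.07 over 5 probes), DNAJC1 (-0.08 and 0.03) and DNAJC8 (-0.07 to 0.09 over 3). In the ER group DNAJC3 did so too (-0.09 and 0.12). Among the 31 genes with several bright probes, 17 kept the same sign at all of them.

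Small heat shock proteins had a positive mean at 9 of 10 probes, against 51.4% of all, but at 4 with normexp and loess (against 49.1%) and at 5 without CMT-U27 (against 52.5%). With the deposited log10 ratios it was 7 (against 45.7%), without P114 9 (against 51.1%) and without CMT-U309 8 (against 51.4%). HSPB8 alone holds 5 of the 10 probes.

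Among co-chaperones, BAG2, which slows the hand-over of HSP70 clients to the ubiquitin ligase STUB1, had the lowest mean ratio of the bright probes. Its arrays gave 0.14 and -0.25 in P114, -0.62 and -0.63 in CMT-U27, and -0.75 and -0.53 in CMT-U309. The mean was -0.44 ± 0.14 (limma's moderated SE, n = 3 lines, adjusted p = 0.498), and that of its second probe was -0.13. BAG3, a co-chaperone that heat shock raises, had means of -0.23, 0.07 and -0.15 at its 3 probes.

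Known targets of the heat shock response did not share a direction. DNAJB1, the main HSP40 of that response, had log2 ratios of -0.15 and 0.04 in P114, -0.01 and -0.08 in CMT-U27 and 0.09 and 0.24 in CMT-U309, with a mean of 0.02. Its second probe had a mean of 0.18. HSP90AA1 had means of -0.21 and -0.00 at its probes, and HSP90AB1 had -0.07. DNAJA1 had 0.04, -0.05 and -0.04, and HSPH1 (HSP110) had 0.23 and 0.19. The HSP110 relatives HSPA4L and HSPA4 had -0.26 and -0.26, and -0.08 and 0.06, at their probes. Of the TRiC/CCT ring, CCT5 had -0.06, TCP1 had 0.17 and 0.18, and CCT8 had -0.26, -0.14 and 0.01. Of the mitochondrial chaperones, HSPA9 (mortalin) had -0.19. At the HSPE1 probe no co-culture channel and 3 monoculture channels passed the background flag. The bound from those signals was under 1, so no fold is given.

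Of probes annotated as a chaperone under another symbol, 17 were found for genes such as inducible HSP70, HSPA8 and HSPD1, and 0 had a p under 0.05. The 4 probes annotated as HSP70 were all highest in CMT-U27, with levels of 13.35, 13.44, 12.30 and 10.13 there against 11.22, 10.93, 10.77 and 8.08 in P114, and their mean ratios were 0.15, -0.23, 0.13 and -0.04. The 2 probes for HSPA8, the constitutive HSP70, had -0.11 and -0.15. The probe annotated as HSPE1 had -0.11 and was well above background in all 12 channels.

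Of 54 related genes 43 had a probe, and 0 were called at the thresholds of the methods. At their brightest probe 2 had an unadjusted p under 0.05 and a positive mean, FKBP4 (0.45) and STUB1 (0.26), and 1 had a negative mean, HERPUD1 (-0.28), a target of the unfolded protein response. FKBP4, an immunophilin that binds HSP90, had -0.14 in P114, 0.73 in CMT-U309 and 0.75 in CMT-U27. HSF1, the main heat shock factor, had 0.07, and of 14 unfolded protein response genes 9 were positive, with a median of 0.02. ATF4 had 0.05, XBP1 0.04 and DDIT3 -0.27.

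The ratios of P114 did not follow those of the other lines. Over the 107 bright chaperone probes line means correlated at 0.72 between CMT-U27 and CMT-U309, against 0.73 over all 20740 such probes, and at -0.21 and -0.22 between P114 and these, against -0.23 and -0.22.

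**Figure D4:**
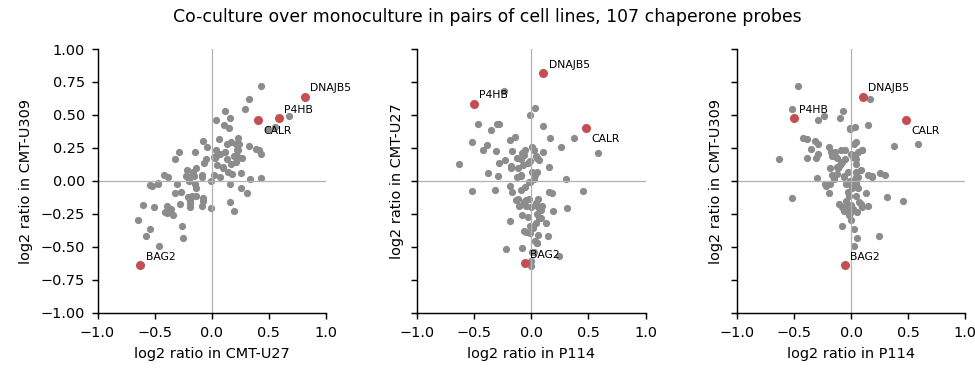
Log2 ratio of co-culture over monoculture in 1 cell line against another, mean of both arrays, for the 107 chaperone probes well above background in all 12 channels (1 point per probe, 4 genes at their brightest probe in red). The left panel, CMT-U27 against CMT-U309, rises along the diagonal (correlation 0.72), and the panels with P114 do not (-0.21 and -0.22).

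Without P114, 16 chaperone probes passed an adjusted p of 0.05 in limma, 7 higher (5.69%, against 8.98% of all probes) and 9 lower (7.32%, against 6.58%). The 7 higher were CALR (0.43), HSPA5 probe 1 (0.45), CANX probe 2 (0.48), P4HB (0.53), BAG1 probe 3 (0.58), HSPB1 (0.58) and DNAJB5 (0.73). The 9 lower were BAG2 (-0.63), DNAJC21 (-0.48), DNAJC18 (-0.47), DNAJB14 (-0.45), CCT8 (-0.35), PDIA6 probe 3 (-0.34), DNAJC25 (-0.32), BAG3 (-0.30) and DNAJC15 (-0.30). None was over 2-fold. This fit rests on 2 cell lines.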

How the data were processed

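RNA of 3 canine mammary tumor lines with and without MDSCs was hybridized to 6 arrays. The authors deposited Feature Extraction output (10.10.1.1 per the file headers, 10.7.3.1 per the submitters' processing notes), with flags (deposited as 0 or 1) and background-subtracted, dye-normalized processed signal intensity for each spot, probe sequences and canFam2 positions. A deposited table of log10 ratios of co-culture over monoculture was an alternative. Samples were grouped by their descriptions.

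Processed signals were scaled to a common median per channel and taken to log2. Controls, outlier spots and probes that never exceeded an intensity of 10 were dropped, and dye-swaps were averaged. Limma 3.58.1 in R 4.3.3 (lmFit, eBayes with a trend) tested the mean ratio of 3 lines and the level between lines, with Benjamini-Hochberg adjustment over 40873 probes. The fits were tested on simulated data. Calls used p under 0.05 and a fold over 2, as in the methods. Tables were handled with pandas 2.3.3 and drawn with matplotlib 3.10.9 in Python 3.11.15. No depth applies to arrays, and their number limits the precision.

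A gene is represented by its brightest probe. Named were probes past the thresholds, fixed representatives of each role and, among probes well above background in all 12 channels, the brightest probes with the 6 highest and 6 lowest mean ratios and the 10 largest ranges between lines, and probes of 1 gene with opposite signs. Other probes of a named gene were added after their values were seen. The members, lists and tests were chosen with earlier results of these data known. Of 71 symbols, 70 were found in the RefSeq table of UU_Cfam_GSD_1.0, all but HSPA1L.

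Arrays with the same number share the dye orientation. Their ratios correlated across lines at -0.22, 0.03 and 0.40 with co-culture in Cy5, and at 0.47, 0.51 and 0.61 in Cy3, so the numbers were not taken as pairs.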

Additional observations from a re-analysis of the deposited data

Results flagged for a closer look

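In 27 comparisons of lines, at 19 of the 69 named probes well above background in all 12 channels, both arrays of 1 line lay on the other side of 0 from both arrays of another. None of these differences was tested, since a line has 1 pair of RNA samples. The share of all probes with such a difference was not counted, and some of the named probes were picked for their ratios. The counts therefore do not set chaperones apart from other probes. P114 is 1 of the lines in 22 of the 27 comparisons. Its arrays correlated at -0.39 with each other over all probes, and at -0.14 over those well above background in all 12 channels. The direction of its ratios is uncertain, and whether a dye label is wrong was not tested. Differences are in log2 ratio, the first line minus the second.

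P114 was below both other lines at BAG1 (-0.66 against CMT-U27 and -0.75 against CMT-U309), HSPB1 (-0.92 and -0.73), HSPB8 (-0.66 and -0.56), HYOU1 (-0.81 and -1.06), P4HB (-1.09 and -0.98) and DNAJA3 probe 4 (-0.33 and -0.75). It was above both at DNAJC10 (0.52 and 0.43) and PDIA6 probe 2 (0.36 and 0.26). Against CMT-U27 alone it differed at DNAJA1 (0.27), DNAJA3 probe 5 (0.30), DNAJC1 (0.22) and HSPA2 probe 2 (-0.73), and against CMT-U309 alone at CCT8 probe 3 (-0.45) and HSP90B1 probe 2 (-0.62). CMT-U27 differed from CMT-U309 at BAG3 probe 2 (0.32), DNAJA1 probe 2 (-0.24), DNAJA1 probe 3 (-0.49), DNAJB1 (-0.21) and DNAJC8 (-0.23).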

How the results depend on the processing

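The count of chaperone probes called higher was 0 under every alternative run. The count called lower was 0 except without the P114 array that has co-culture RNA in Cy5, where HSPE1 was called, whose probe passed the background flag in no co-culture channel, so leaving out 1 array or line gave 0 to 1. The count past an adjusted p was 0 to 16 when 1 array or line was left out, and only leaving out P114 gave any (16). The count for the level between lines was 99, from 77 to 105 with 1 array or RNA left out, 94 after quantile normalization and 73 without a trend in eBayes. The median log2 ratio over the 70 genes tested was -0.02, from -0.06 to 0.00 with 1 array or line left out. The 6 arrays with a dye term, each counted as a replicate, gave 0 calls in either direction, 0 past an adjusted p and a median of -0.02. With a block for each RNA, the 12 channels gave 105 probes for the level, so no call on these counts changed.

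Of 1259 values of single named probes under the alternatives, 1251 kept their sign or moved by less than the spread between lines, and 7 turned sign by more. Signal over background limits the dim probes.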
